A study of Mus musculus with 30 samples.

Results

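The mitochondrial ribosomal protein genes were taken as all genes whose symbol in the array's annotation starts with Mrpl or Mrps followed by a number. A total of 77 such genes of 19938 named genes were measured, 50 for proteins of the large subunit, 26 for proteins of the small subunit, and Mrps36, whose product is now placed in the oxoglutarate dehydrogenase complex. Each gene was represented by its probe set with the highest mean level among those annotated to that gene alone, and 8 genes had a further probe set. Levels are log2 expression values of Affymetrix Mouse Gene ST arrays, in spleen and lymph node of 15 mice (30 arrays). Tg26 mice carry an HIV-1 provirus of the pNL4-3 clone from which part of gag-pol is missing, so that no infectious virus is made. The groups were 6 heterozygous Tg26 mice with lymphoma, 6 heterozygous Tg26 mice without disease signs (asymptomatic) and 3 FVB/N mice, the background strain of all, with ages from 5 to 12 months given for the whole series and none per mouse.

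Mitochondria hold their own ribosomes, which translate the few proteins encoded in mitochondrial DNA, all of them parts of the respiratory chain and ATP synthase. Every protein of these ribosomes is encoded in the nucleus, made in the cytosol and imported. Many descend from bacterial ribosomal proteins, and others were added during mitochondrial evolution and have no bacterial counterpart. Growing and dividing lymphoid cells build mitochondria and need new ribosomes for them.

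The labels assign mice 1 to 3 of each state to batch A and mice 4 to 6 with lymphoma or without disease to batch B, so FVB/N mice were in batch A only. For the spleen of lymphoma mouse 4 the disease code was the one of FVB/N arrays, and the array was grouped as lymphoma by its title. Several arrays held RNA of neighbouring organs. Among nodes, 8 adipose genes averaged 8.87 to 10.79 for asymptomatic mice 2 to 5 and 8.07 for FVB/N mouse 2, against 5.60 to 5.98 in lymphoma nodes. For asymptomatic mice 5 and 6, 10 exocrine pancreas genes averaged 12.11 and 13.40 in node. In node, 10 salivary gland genes averaged 7.90 and 8.69 for asymptomatic mice 2 and 3 and 10.26 and 8.74 for FVB/N mice 2 and 3, and 6 muscle genes averaged 9.32 and 8.13 for asymptomatic mice 3 and 4 and 9.41 for FVB/N mouse 2. In the tissues measured here, fewer cells of one type and less RNA per cell cannot be told apart.

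The spleens of the 3 lymphoma mice of batch A had higher levels of mitochondrial ribosomal protein genes than any other spleen. Averaged over the 77 genes, they stood at 8.82, 8.80 and 8.81, against 8.45, 8.30 and 8.43 in the lymphoma spleens of batch B, 8.29 to 8.37 in the 6 asymptomatic spleens and 8.28 to 8.30 in the 3 FVB/N spleens. Of the lymphoma spleens of batch B, that of mouse 5, at 8.30, thus lay within the asymptomatic range. Those of mice 4 and 6, at 8.45 and 8.43, lay above it, though by less than those of batch A. In lymph node the groups overlapped, with 8.38 to 8.67 in lymphoma (median 8.50), 8.02 to 8.63 in asymptomatic (median 8.39) and 8.32 to 8.46 in FVB/N mice. The lowest and the highest asymptomatic nodes, of mice 6 and 3, were among those with RNA of neighbouring organs.

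**Figure D1:**
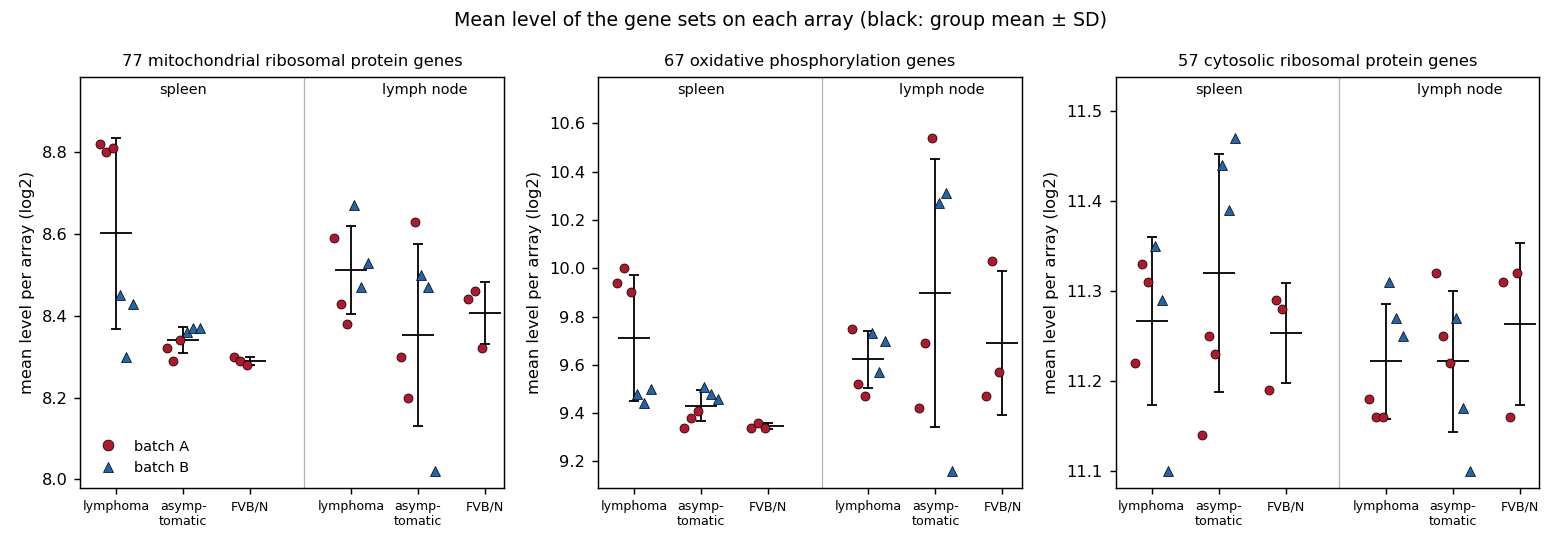
Mean log2 level per array of the 77 mitochondrial ribosomal protein genes (left), 67 nuclear genes of oxidative phosphorylation (middle) and 57 cytosolic ribosomal protein genes (right), by state and tissue; circles are batch A, triangles batch B, and black marks the group mean ± SD. The batch A lymphoma spleens stand above all other spleens in the left and middle panels, at 8.80 to 8.82 and 9.90 to 10, and within the others in the right panel.

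Gene by gene, the same spleens stood apart. In 41 of the 77 genes all 3 lymphoma spleens of batch A lay above all 6 asymptomatic spleens, a pattern found in 12.8% of all genes. Within batch A, the lymphoma spleens lay above the asymptomatic ones in 59 of the 77 genes (17.6% of all genes) and below in 1 (23.6%). Within batch B, they lay above in 10 (13.1%) and below in 8 (14.7%). The asymptomatic spleens differed between batches too: those of batch A lay below those of batch B in 28 of the 77 genes (14.1% of all genes) and above in 25 (33.2%). The lymphoma spleens of batch A lay above those of batch B in 44 (17.5%). The median measured difference between lymphoma and asymptomatic spleens was 0.50 in batch A, with 72 of 77 genes positive, and 0.04 in batch B, with 42 positive. It was 0.26 over both batches, with 67 positive, against a median of -0.02 over all genes.

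**Figure D2:**
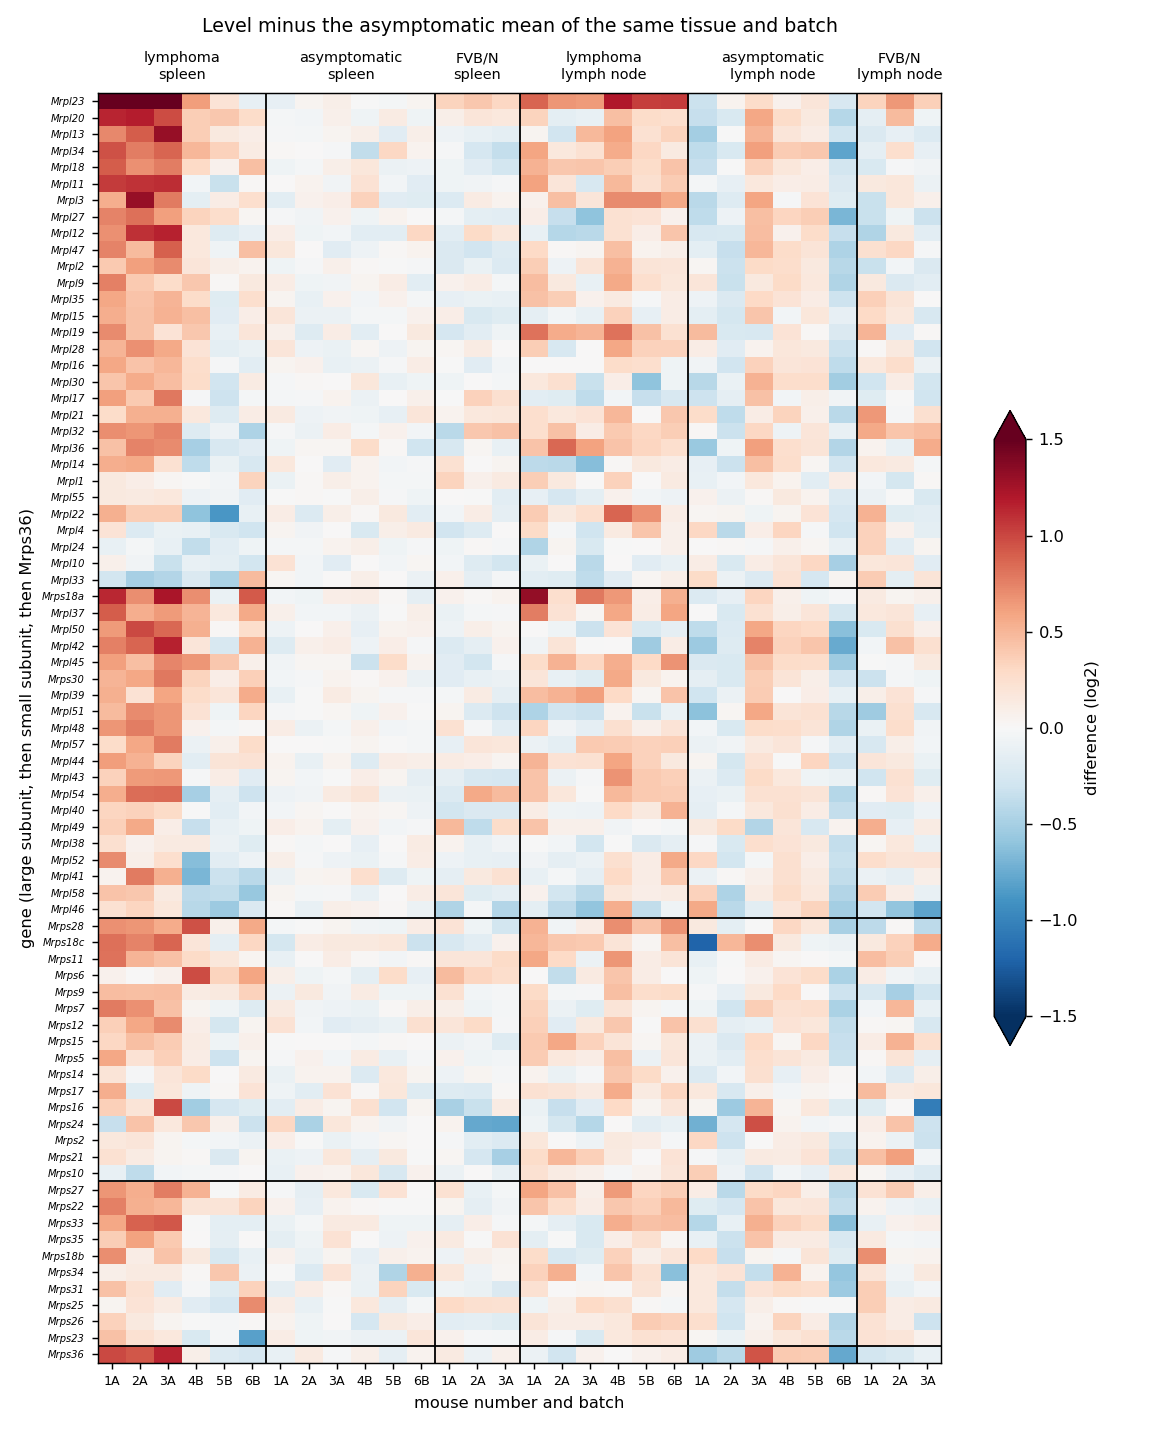
Level of each of the 77 genes on each array minus the mean of the asymptomatic arrays of the same tissue and batch (log2, colour), with genes in rows by subunit and arrays in columns by state, tissue, mouse number and batch. The 3 left columns, the batch A lymphoma spleens, are red in most rows, and the next 3, of batch B, are mixed.

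How many of the genes were called in spleen depended on how differences between arrays were modelled. The fit that follows the submitters' description (limma with 6 surrogate variables, which stand for unexplained differences between arrays) called 2 of 77 genes higher in lymphoma than in asymptomatic spleens (8.58% of all genes were called higher) and 0 lower (7.25%). Calls are at a p under 0.05 after Benjamini-Hochberg adjustment across the 19938 genes. The surrogate variables also lay partly between the 6 groups (59.6% for 1 of them), so fitted and measured differences can part. For 8 adipose genes in spleen the median was -1.19 fitted and -0.04 measured. The median fitted difference of the 77 was 0.11, against -0.03 over all genes. It turned to -0.08 without the 12 arrays of both tissues that had a neighbouring-tissue list mean of 6.9 or more. These included the spleen of lymphoma mouse 1, of batch A. At a limit of 7.5, chosen after the data were seen, 9 arrays were left out. That spleen was then kept, and the median was 0.225. When a batch term replaced the surrogate variables, limma called 22 higher (9.85% of all genes) and 0 lower (10.3%). Within batch A alone it called 37 higher (7.5% of all genes) and 0 lower (6.39%). Within batch B alone it called 0 in either direction (3.95% of all genes higher, 4.46% lower), and 7 genes had an unadjusted p under 0.05. For counts at an unadjusted p, here and below, the share of all genes at that level is not given. The surrogate variable count also turned on single mice. It was 43 higher without lymphoma mouse 5, 21 without asymptomatic mouse 6, 11 without asymptomatic mouse 5, 7 without lymphoma mouse 3, and 4 without asymptomatic mouse 1 or 4. It was 15 higher and 1 lower without lymphoma mouse 4, and 4 higher and 1 lower without lymphoma mouse 6. It was 1 higher without lymphoma mouse 1 or asymptomatic mouse 2 or 3, and 0 higher and 3 lower without lymphoma mouse 2, where the median was -0.03. For fits without 1 mouse, here and below, the share of all genes called is not given. These counts therefore have no background beside them.

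The difference between batches was tested in a fit of the 10 groups by batch without surrogate variables, chosen after the data had been seen. The lymphoma change in spleen was larger in batch A for 2 of 77 genes, Mrpl23 and Mrpl11 (0.125% of all genes), and smaller for 0 (0.0301%). The median of the difference over the 77 genes was 0.46, with 72 positive, against -0.03 over all genes. In lymph node 0 genes were called (0% of all genes), and the median was -0.16. With 3 mice per state and batch, a batch of arrays and a set of tumours cannot be told apart here.

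Marker lists were set beside the same spleens, and 0 of their genes were called for the difference between batches. The macrophage means of lymphoma spleens did not overlap between batches A and B. Their erythroid, mature B cell and plasma cell means did. The mean of 6 macrophage genes was 9.15, 9.77 and 9.15 in the lymphoma spleens of batch A, against 7.10, 8.23 and 8.21 in those of batch B, and 9.05 to 9.50 in asymptomatic spleens. The mean of 4 erythroid genes was 9.52, 8.11 and 8.38 in batch A lymphoma spleens and 6.87, 8.40 and 7.12 in those of batch B. All 7 measured proliferation genes were called higher in lymphoma spleens by the surrogate variable fit, with list means of 9.83 to 10.34 in batch A, 9.15 to 10.11 in batch B and 7.36 to 8.15 in asymptomatic spleens. All 8 T cell genes were called lower and 7 of 8 early B precursor genes higher, with means of the second list at 9.39 to 10.06 in lymphoma spleens and 6.50 to 6.82 in asymptomatic spleens. For exocrine pancreas genes, lymphoma spleens averaged 5.96 to 6.95, while asymptomatic mice 4 and 5 had 7.60 and 8.69. The part of these markers in the levels of the mitochondrial ribosomal protein genes was not tested.

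Mrpl23, whose bacterial homolog sits at the exit of the tunnel for the new protein, varied most among the 77 genes, over 2.73 log2 units. Its level was 10.93, 10.97 and 11.02 in the lymphoma spleens of batch A and 9.69, 9.27 and 8.94 in those of batch B. In asymptomatic spleens it was 9.20, 9.37 and 9.41 in batch A and 9.05, 9.03 and 9.10 in batch B, and in FVB/N spleens 9.66, 9.73 and 9.64. Among lymphoma spleens, that of mouse 5 lay within the asymptomatic range, that of mouse 6 below it and the 4 others above it. The group means were 10.14 ± 0.95 in lymphoma and 9.19 ± 0.16 in asymptomatic spleens (SD, n = 6 each), and the surrogate variable fit gave a difference of 0.77 (SE 0.25, limma adjusted p = 0.038). The measured difference was 1.64 in batch A and 0.24 in batch B, and these differed by 1.40 (SE 0.22, limma adjusted p = 0.00817). The call was lost without lymphoma mouse 1 or 2 (0.40 without mouse 2, adjusted p = 0.438), without any of asymptomatic mice 1 to 3, with the mouse number as a block (0.62, adjusted p = 0.161) and without arrays holding neighbouring tissue.

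In lymph node, Mrpl23 was at 10.65, 10.44 and 10.41 in lymphoma mice of batch A and 9.73, 9.56 and 9.57 in those of batch B, against 9.45, 9.83 and 10.05 and 8.59, 8.70 and 8.28 in asymptomatic mice of batches A and B. FVB/N nodes had 10.11, 10.43 and 10.13. Within each batch every lymphoma node was above every asymptomatic node. The fitted difference was 0.98 (SE 0.28, limma adjusted p = 0.0116), the largest rise of the 77 in node, and the batch term fit gave 0.91 (SE 0.18, adjusted p = 0.000192). It fell to 0.68 without asymptomatic mouse 4 (adjusted p = 0.144). A second probe set of Mrpl23 gave measured differences of 1.03 in spleen and 0.90 in node, against 0.94 and 0.91 for the one used. Between lymphoma and FVB/N mice the fitted differences, 0.73 in spleen and 0.54 in node, were not called (limma adjusted p = 0.139 and 0.334). The measured ones were 0.46 and -0.16. The batch term called it in spleen (0.97, limma adjusted p = 0.00294) and not in node (0.35, adjusted p = 0.265). Asymptomatic arrays lay below all FVB/N arrays in both tissues, but the fitted differences, -0.05 in spleen and -0.45 in node, were not called (limma adjusted p = 1 and 0.432).

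Mrpl20 and Mrps22 were the 2 genes of 77 in which all 6 lymphoma spleens lay above all 6 asymptomatic spleens (4.59% of all genes), and in 0 were all below (4.96%). Mrpl20, a large subunit protein that in bacteria acts early in assembly, was at 8.71 to 8.91 in lymphoma spleens (median 8.85). It was at 7.70, 7.68 and 7.80 in asymptomatic spleens of batch A and 8.40, 8.59 and 8.40 in those of batch B. The fitted difference was 0.50 (SE 0.11, limma adjusted p = 0.00193), and the call was lost without lymphoma mouse 2 (0.38, adjusted p = 0.0949), within batch B alone (0.35, adjusted p = 0.26) and without arrays holding neighbouring tissue at the 6.9 limit (0.36, adjusted p = 0.402), though not at 7.5. Mrps22, a small subunit protein with no bacterial counterpart, was at 8.41 to 8.67 in lymphoma spleens (median 8.49) and 7.79 to 8.32 in asymptomatic ones (median 8.13). Its spleen difference was 0.24 with surrogate variables (SE 0.09, limma adjusted p = 0.0772) and 0.42 with the batch term (SE 0.11, adjusted p = 0.00731).

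Mrpl11, part of the stalk base that elongation factors contact, showed the batch difference most plainly after Mrpl23. Its lymphoma spleens had 8.76, 8.80 and 8.82 in batch A and 8.60, 8.30 and 8.65 in batch B, against 7.72, 7.77 and 7.66 and 8.85, 8.59 and 8.47 in asymptomatic spleens of batches A and B. The 4 sets of 3 thus differed through the batch A asymptomatic spleens, which were lowest. The difference between batches was 1.20 (SE 0.22, limma adjusted p = 0.0351). FVB/N spleens, all of batch A, had 7.65, 7.66 and 7.70.

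**Figure D3:**
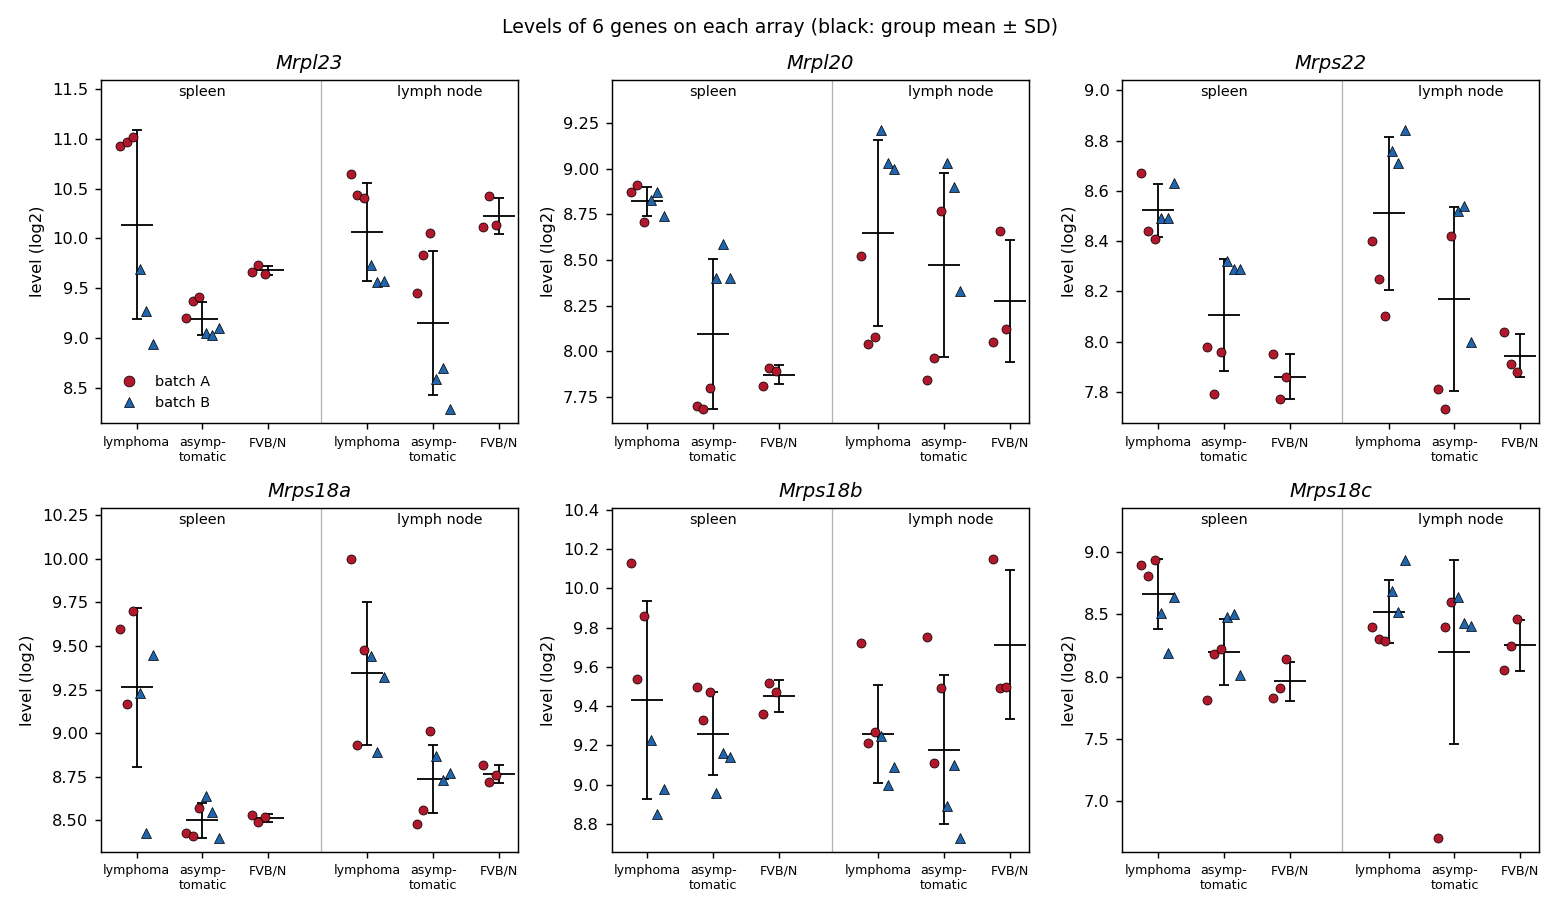
Log2 levels of Mrpl23, Mrpl20, Mrps22 and the 3 Mrps18 paralogs on each array, by state and tissue; circles are batch A, triangles batch B, and black marks the group mean ± SD. Mrpl23 separates the batch A lymphoma spleens (10.93 to 11.02) from all others, and Mrpl20 and Mrps22 separate all 6 lymphoma from all 6 asymptomatic spleens.

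The 250 bases before a transcript start of Mrpl23, Mrpl20, Mrps22 and Mrps18a are shown because Mrpl23 and Mrpl20 are the 2 genes called in spleen, Mrpl20 and Mrps22 are those whose lymphoma and asymptomatic spleens did not overlap, and Mrps18a is set against its paralogs (RefSeq, GRCm38.p6, given 5′ to 3′ on the strand of the gene). Mrpl23 lies on the plus strand at chr7:142532782-142533031, Mrpl20 on the plus strand at chr4:155802628-155802877, Mrps22 on the minus strand at chr9:98601680-98601929 and Mrps18a on the plus strand at chr17:46110754-46111003. RefSeq's extent of Mrpl23 begins at 142532467, before this window, so the window precedes a later transcript start and lies inside the gene's extent. Capitals mark matches on either strand to CCGGAAG (a core of ETS factors such as GABP), the NRF1 core, AAGATGGC (YY1), CACGTG (E-box) or GGGCGG (GC box).
Mrpl23: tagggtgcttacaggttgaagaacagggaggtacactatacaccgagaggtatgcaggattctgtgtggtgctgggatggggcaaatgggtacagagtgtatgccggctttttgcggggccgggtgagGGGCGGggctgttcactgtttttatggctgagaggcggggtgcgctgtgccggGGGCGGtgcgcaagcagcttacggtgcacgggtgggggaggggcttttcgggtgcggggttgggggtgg
Mrpl20: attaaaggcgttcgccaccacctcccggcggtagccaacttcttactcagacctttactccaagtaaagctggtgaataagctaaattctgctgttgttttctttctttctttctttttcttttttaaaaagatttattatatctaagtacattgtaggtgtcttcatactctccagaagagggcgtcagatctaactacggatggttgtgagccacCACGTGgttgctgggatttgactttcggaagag
Mrps22: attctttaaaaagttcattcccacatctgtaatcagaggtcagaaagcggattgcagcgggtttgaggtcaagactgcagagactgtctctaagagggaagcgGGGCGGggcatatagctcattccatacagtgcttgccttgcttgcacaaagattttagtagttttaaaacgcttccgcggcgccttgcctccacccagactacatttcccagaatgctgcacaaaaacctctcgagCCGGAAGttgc
Mrps18a: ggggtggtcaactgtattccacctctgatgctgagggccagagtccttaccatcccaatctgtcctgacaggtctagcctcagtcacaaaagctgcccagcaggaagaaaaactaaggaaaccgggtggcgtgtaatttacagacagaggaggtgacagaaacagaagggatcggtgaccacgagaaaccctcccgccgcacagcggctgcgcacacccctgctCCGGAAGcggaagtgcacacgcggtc
Mrps22 and Mrps18a each held the ETS core close to the start site, and Mrps22 also a GC box. Mrpl20 held an E-box, and Mrpl23 a pair of GC boxes and none of the others. Over the 68 of 77 genes with a promoter in the RefSeq table, the ETS core was found in 16 (23.5%, against 7.05% of all 27025 promoters), the NRF1 core in 10 (14.7% against 3.86%) and the YY1 core in 4 (5.88% against 1.59%). The E-box was found in 5 (7.35% against 6.05%), GGGCGG in 33 (48.5% against 32.9%) and TATAAA in 4 (5.88% against 13%). These matches describe letters in the window and not bound factors.

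By subunit, the batch A spleens showed the difference in all role groups, and mitochondria-specific proteins followed the same direction as those of bacterial descent. Within batch A, lymphoma spleens were called higher for 16 of 30 large subunit genes with a bacterial homolog (median 0.54) and 12 of 20 mitochondria-specific large subunit genes (median 0.55). The counts were 5 of 16 small subunit genes with a bacterial homolog (median 0.38) and 3 of 10 mitochondria-specific small subunit genes (median 0.34). Within batch B the 4 medians were between 0.02 and 0.05. With the batch term over all mice, 10 of 30, 7 of 20, 3 of 16 and 2 of 10 were called higher in the same order. The shares of all genes called higher in spleen are given above for both fits, and the small subunit counts rest on few genes. Mrpl18, whose bacterial homolog binds the 5S ribosomal RNA, rose by 0.53 (SE 0.11, limma adjusted p = 0.000854), Mrpl37 by 0.56 (SE 0.12, adjusted p = 0.00107) and Mrpl13 by 0.59 (SE 0.16, adjusted p = 0.0068) in that fit. Mrps28 rose by 0.58 (SE 0.15, adjusted p = 0.00462) with nearly equal measured differences of 0.63 in batch A and 0.53 in batch B; it was named after its values were seen.

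**Figure D4:**
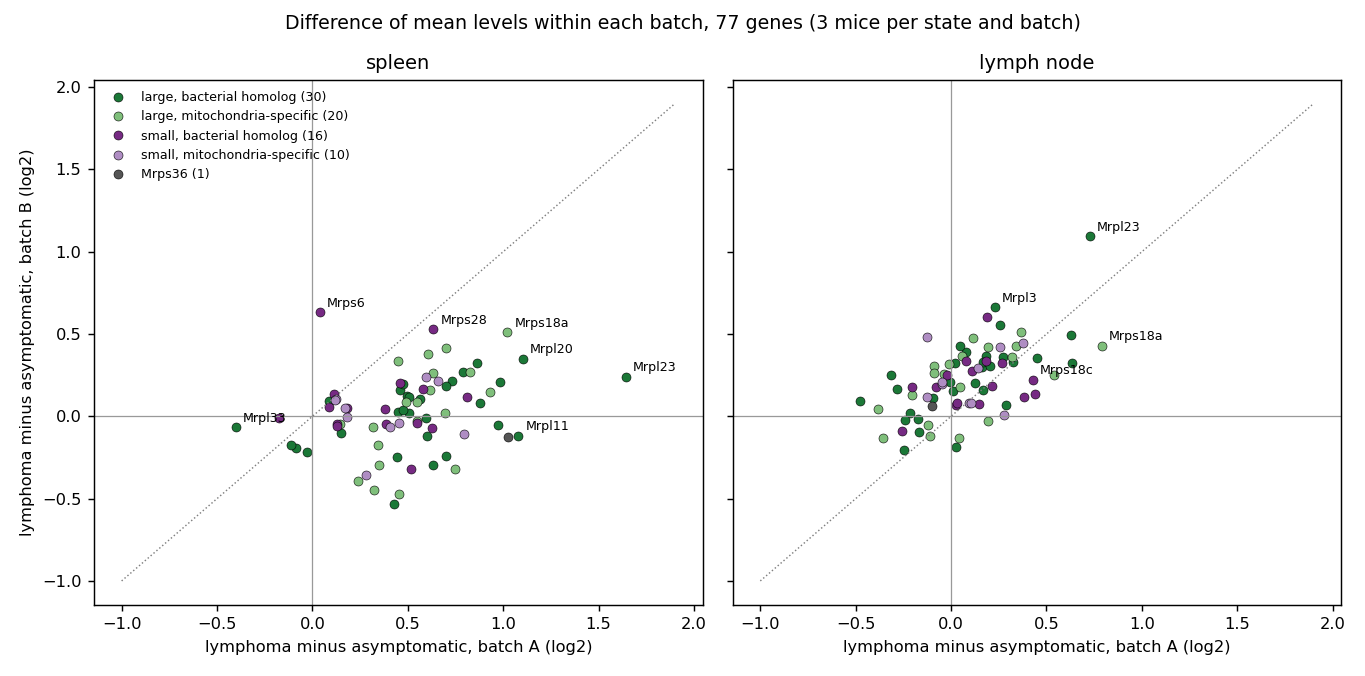
Measured difference between lymphoma and asymptomatic mice of each of the 77 genes within batch A (horizontal) and batch B (vertical), in spleen (left) and lymph node (right), coloured by subunit and descent, with the dotted line marking equal differences. In spleen most genes lie right of 0 and below the line, with medians of 0.50 and 0.04 in batches A and B, and in lymph node 58 of 77 lie above it, with medians of 0.08 and 0.22.

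In lymph node, the surrogate variable fit called 14 of 77 genes higher (11.6% of all genes) and 3 lower (12.5%) in lymphoma than in asymptomatic mice. The median fitted difference of the 77 was 0.12, against -0.02 over all genes. The 14 were 6 of 30 large subunit genes with a bacterial homolog, 5 of 20 mitochondria-specific large subunit genes, 2 of 16 small subunit genes with a bacterial homolog and 1 of 10 mitochondria-specific ones. The batch term called 13 higher (16.5% of all genes) and 0 lower (16.2%). Within batch A it was 6 higher (8.18%) and 0 lower (8.47%), and within batch B 3 higher (9.33%) and 0 lower (10.8%). The surrogate variable count was 2 higher and 1 lower without asymptomatic mouse 1, 4 higher and 3 lower without asymptomatic mouse 4, and 7 higher and 1 lower without asymptomatic mouse 2. It was 6 higher and 1 lower without lymphoma mouse 1, and 10 higher and 1 lower without lymphoma mouse 2. The median turned to -0.02 without asymptomatic mouse 4. No gene had all lymphoma nodes above, or all below, all asymptomatic nodes (5.04% of all genes above, 5.81% below). All 8 adipose genes and all 8 T cell genes were called lower in lymphoma nodes, and 7 of 8 early B precursor genes and all 7 proliferation genes higher. Of 6 macrophage genes, 1 was called lower, and 6 with the batch term. The early B precursor genes averaged 9.81 to 10.26 in lymphoma nodes and 6.37 to 7.42 in asymptomatic nodes. The part of these markers in the differences was not tested.

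Among large subunit proteins, Mrpl34 rose by 0.68 (SE 0.16, limma adjusted p = 0.00244) in the nodes of lymphoma mice, Mrpl36 by 0.55 (SE 0.18, adjusted p = 0.0287) and Mrpl18 by 0.47 (SE 0.10, adjusted p = 0.00138). Mrpl3, whose bacterial homolog reaches towards the catalytic centre, rose by 0.49 (SE 0.16, adjusted p = 0.0257) and Mrpl20 by 0.39 (SE 0.12, adjusted p = 0.0173). The Mrpl34 and Mrpl20 calls were absent with the batch term (0.33 and 0.17, adjusted p = 0.214 and 0.438), all 5 were lost without asymptomatic mouse 1, and those of Mrpl34, Mrpl3 and Mrpl20 also without asymptomatic mouse 4. Of the mitochondria-specific large subunit proteins, Mrpl39 rose by 0.54 (SE 0.13, limma adjusted p = 0.00328), Mrpl44 by 0.42 (SE 0.11, adjusted p = 0.00895) and Mrpl37 by 0.35 (SE 0.11, adjusted p = 0.0263). Mrpl45, which holds the ribosome to the inner membrane, rose by 0.50 (SE 0.17, adjusted p = 0.0329). These 4 were also called with the batch term (0.34 to 0.44, limma adjusted p from 0.00467 to 0.0309). Mrpl37 and Mrpl45 lost their call without asymptomatic mouse 1 and also without asymptomatic mouse 4, Mrpl39 without mouse 1 and Mrpl44 without mouse 4.

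Among small subunit proteins, Mrps15 rose by 0.44 (SE 0.11, limma adjusted p = 0.00421) and Mrps22 by 0.35 (SE 0.10, adjusted p = 0.0132) in lymphoma nodes. Mrps22 was at 8.10 to 8.84 in lymphoma nodes (median 8.55), 7.73 to 8.54 in asymptomatic nodes (median 8.21) and 8.04, 7.91 and 7.88 in FVB/N nodes. Within batch B its lymphoma nodes, at 8.76, 8.71 and 8.84, lay above the asymptomatic ones, at 8.52, 8.54 and 8. Mrps22 was called with the batch term too (0.34, SE 0.11, adjusted p = 0.0205), Mrps15 was not (0.29, SE 0.11, adjusted p = 0.0544). Both lost their call without asymptomatic mouse 1 and also without asymptomatic mouse 4.

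The Mrps18 family has 3 members that occupy different places: Mrps18c is the small subunit homolog of bacterial S18, Mrps18b is a further small subunit protein, and Mrps18a belongs to the large subunit. In spleen, Mrps18a was at 9.60, 9.17 and 9.70 in batch A lymphoma mice and 9.23, 8.43 and 9.45 in those of batch B, against 8.40 to 8.64 in asymptomatic and 8.49 to 8.53 in FVB/N mice. Thus 5 of 6 lymphoma spleens were above all asymptomatic and FVB/N spleens, and that of mouse 5 was among them. The spleen difference was 0.77 with the batch term (SE 0.17, limma adjusted p = 0.00107) and 0.42 with surrogate variables (SE 0.19, adjusted p = 0.144). In node Mrps18a was at 8.89 to 10 in lymphoma (median 9.38), 8.48 to 9.01 in asymptomatic (median 8.75) and 8.72 to 8.82 in FVB/N mice, a fitted difference of 0.69 (SE 0.21, limma adjusted p = 0.0181), or 0.61 with the batch term (SE 0.17, adjusted p = 0.0051). The surrogate variable call was lost without lymphoma mouse 1 (0.36, adjusted p = 0.31) and without asymptomatic mouse 1, 2 or 4 (0.45, 0.65 and 0.80, adjusted p = 0.172, 0.0519 and 0.0941).

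Mrps18b was not called in either tissue, with fitted differences of 0.11 in spleen (SE 0.13, limma adjusted p = 0.67) and -0.04 in node (SE 0.15, adjusted p = 0.891), and its group ranges overlapped. Mrps18c was called higher in lymphoma nodes, by 0.72 (SE 0.24, limma adjusted p = 0.0283). That difference rested on the node of asymptomatic mouse 1, at 6.70 against 8.40 to 8.64 in the 5 other asymptomatic nodes and 8.29 to 8.94 in lymphoma nodes. Without that mouse it was 0.07 (adjusted p = 0.879). In spleen the 3 batch A lymphoma mice had 8.90, 8.81 and 8.94, above all asymptomatic spleens (7.81 to 8.50), and the batch B lymphoma mice, at 8.51, 8.19 and 8.64, overlapped them.

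The 3 genes called lower in lymphoma nodes were Mrpl33 (-0.49, SE 0.16, limma adjusted p = 0.0274), Mrpl24 (-0.33, SE 0.10, adjusted p = 0.0188) and Mrpl46 (-0.56, SE 0.20, adjusted p = 0.0445), the last named only to complete the count. The batch term gave -0.13, -0.10 and -0.17 for Mrpl33, Mrpl24 and Mrpl46, with none called (limma adjusted p = 0.46, 0.406 and 0.492). Mrpl33 was at 6.63 to 6.96 in lymphoma nodes (median 6.86), 6.55 to 7.40 in asymptomatic nodes (median 6.96) and 7.5, 6.97 and 7.31 in FVB/N nodes. The groups of lymphoma and asymptomatic mice overlapped for all 3 genes.

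Mrps36 was at 8.06, 8.01 and 8.22 in the lymphoma spleens of batch A and 7.62, 7.33 and 7.28 in those of batch B, against 6.96, 7.21 and 7.05 and 7.62, 7.39 and 7.58 in asymptomatic spleens of batches A and B. The rise within batch A was thus 1.03 and the batch B groups differed by -0.12, and the fit over all spleens did not call it (0.16, SE 0.19, limma adjusted p = 0.639). RefSeq lists pseudogenes of Mrps36, Mrpl23, Mrpl27 and Mrpl48, so part of their signal may come from near copies.

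Between asymptomatic and FVB/N mice, limma with surrogate variables called 0 of 77 genes in spleen (0.306% of all genes higher, 0.311% lower) and 0 in node (1.34% higher, 0.592% lower). At an unadjusted p under 0.05 there were 3 genes in spleen and 7 in node, and the batch term fit also called 0, with 2 and 3 genes at that unadjusted level (in spleen 0.0351% of all genes were called higher and 0.0853% lower, in node 0.015% and 0.0251%). In spleen, 6 genes were above in every asymptomatic mouse (3.99% of all genes) and 4 below (4.04%), among them Mrpl23. In node Mrps9 was above and Mrpl23 below in every asymptomatic mouse (1.26% of all genes in each direction). Since batch B held no FVB/N mouse, all asymptomatic mice of batch B were compared across batches.

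Between lymphoma and FVB/N mice, 3 genes were called higher in spleen (7.1% of all genes) and 0 lower (5.25%). Mrpl13, a large subunit protein, rose by 0.69 (SE 0.21, limma adjusted p = 0.0304), Mrpl34 by 0.53 (SE 0.17, adjusted p = 0.0486) and Mrpl18 by 0.46 (SE 0.11, adjusted p = 0.0081). Mrpl13 was at 8.60 to 9.18 in lymphoma spleens (median 8.73), against 7.80, 7.76 and 7.73 in FVB/N spleens. The batch term called 20 higher (7.5% of all genes) and 0 lower (7.64%), and the fit within batch A 34 (8.65%). With the number of the mouse as a block the count was 1, with no share of all genes beside it. The count of the surrogate variable fit, 3 over all mice, was 35 without lymphoma mouse 5. Without lymphoma mouse 3 it was 9 higher and 1 lower, without lymphoma mouse 4 it was 10 higher, without lymphoma mouse 2 it was 1 higher and 2 lower, and without lymphoma mouse 1, lymphoma mouse 6 or an FVB/N mouse it was 0 to 2. In 21 of the 77 genes all 6 lymphoma spleens lay above all 3 FVB/N spleens (8.38% of all genes), and in 0 below (12.5%). The FVB/N comparison shares its lymphoma arrays with the comparison above. In both tissues it set the lymphoma mice of batch B against FVB/N mice of batch A, so these were compared across batches.

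In node, 6 genes were called higher (8.59% of all genes) and 3 lower (7.98%) in lymphoma than in FVB/N mice. Mrpl34 rose by 0.95 (SE 0.19, limma adjusted p = 0.000811), Mrpl18 by 0.56 (SE 0.12, adjusted p = 0.00238) and Mrpl2, next to the catalytic centre in bacteria, by 0.45 (SE 0.14, adjusted p = 0.0255). Mrpl43, Mrpl39 and Mrps22 were the other rises, by 0.63, 0.49 and 0.41. Mrpl33 fell by 0.74 on the log2 scale (SE 0.19, limma adjusted p = 0.00911), Mrpl21 by 0.52 (SE 0.13, adjusted p = 0.00671) and Mrpl24 by 0.44 (SE 0.12, adjusted p = 0.0135). All 6 lymphoma nodes lay above all 3 FVB/N nodes in 6 genes (10.3% of all genes) and below in Mrpl14 and Mrpl33 (8.25%). For Mrpl34 the measured means differed by 0.04 only and the batch term gave 0.50 (adjusted p = 0.16), while Mrpl18, Mrpl39, Mrpl2 and Mrps22 were called with the batch term as well. The measured means of Mrpl43, Mrpl21 and Mrpl24 differed the other way, by -0.08, 0.15 and 0.02, and the batch term called none of these nor Mrpl33 (limma adjusted p from 0.11 to 0.89). The count of 9 became 26 without lymphoma mouse 5, 14 without lymphoma mouse 3, 5 without lymphoma mouse 1 or FVB/N mouse 3, and 2 without lymphoma mouse 2.

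The lymphoma against asymptomatic difference was compared between tissues in the same fit. No gene of the 77 was called for the node minus spleen difference (0.256% of all genes positive, 0.316% negative), with 4 at an unadjusted p under 0.05 and a lowest limma adjusted p of 0.14, for Mrps15. The batch term also called 0 (0.823% of all genes positive, 3.16% negative), with 5 at that unadjusted level. Within batch A the median of the node minus spleen difference was -0.38, with 0 called (0.11% of all genes positive, 0.0351% negative). Within batch B it was 0.16, with 0 called (0.206% and 1.93%). At an unadjusted p under 0.05 there were 27 of 77 genes in batch A and 10 in batch B. The shares of all genes given here are of those called, so the counts of 27 and 10 have no background beside them.

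Node and spleen of the same state differed in few of these genes. In lymphoma mice 0 were called (0% of all genes higher in node, 0.0552% lower) and 3 had an unadjusted p under 0.05. In asymptomatic mice Mrps15 was lower in node by the surrogate variable fit (-0.46, SE 0.11, limma adjusted p = 0.0155; 2.26% of all genes lower and 3.36% higher), but not by the batch term (-0.15, adjusted p = 0.381). In FVB/N mice 0 were called (2.14% higher, 2.13% lower), with 7 at the unadjusted level, while 15 genes lay higher in all 3 nodes than in all 3 spleens (9.44% of all genes) and 2 lower (18%). The batch term called 0 in lymphoma mice (0% of all genes higher, 0.00502% lower) and in FVB/N mice (3.61% higher, 2.62% lower), with 2 and 5 at the unadjusted level. In asymptomatic mice it called 2 higher in node (9.02% of all genes) and 0 lower (7.12%).

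Related lists show how far the pattern went beyond the ribosome. The 67 measured nuclear genes of oxidative phosphorylation, whose products work beside those that mitochondrial ribosomes make, averaged 9.94, 10 and 9.90 in the batch A lymphoma spleens, against 9.48, 9.44 and 9.50 in batch B lymphoma spleens and 9.34 to 9.51 in asymptomatic spleens. The batch A minus batch B difference of the lymphoma change was positive in 66 of 67 of them (median 0.51), with 0 called. The 57 cytosolic ribosomal protein genes averaged 11.22 to 11.33 in batch A lymphoma spleens, 11.10 to 11.35 in batch B lymphoma spleens and 11.14 to 11.47 in asymptomatic spleens, which overlapped. Their batch difference had a median of 0.26, with 47 of 57 positive. For 13 translation factors, 23 assembly factors, 16 tRNA synthetases and 16 genes of mitochondrial DNA expression the medians of that difference were between -0.02 and 0.16.

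In the surrogate variable fit of lymphoma against asymptomatic spleens, 0 of 67 oxidative phosphorylation genes were called higher and 4 lower (5.97%, against 7.25% of all genes), with a median of -0.09. The direction turned with the batch term, which called 4 higher (5.97%, against 9.85% of all genes) and 0 lower, with a median of 0.25 and 60 of 67 positive. In node 2 were called higher (2.99%, against 11.6%) and 6 lower (8.96%, against 12.5%), and 2 higher and 7 lower with the batch term. The nodes of asymptomatic mice 3, 4 and 5, which held adipose RNA, had the highest means of this list, 10.54, 10.27 and 10.31. Of the 13 translation factors, 0 were called in spleen, while in node Guf1, Mtrf1 and Oxa1l rose and Mtif3 and Taco1 fell. These were 23.1% and 15.4% of the list, against 11.6% and 12.5% of all genes. Oxa1l, which inserts new proteins into the inner membrane, rose by 0.54 (SE 0.13, limma adjusted p = 0.00298), and Mtif3, an initiation factor, fell by 0.48 on the log2 scale (SE 0.11, adjusted p = 0.00266). The batch term called Oxa1l, Guf1 and Mtrf1 too, but not Mtif3 or Taco1 (adjusted p = 0.0882 and 0.427). Of 16 tRNA synthetases, Sars2 rose and Ears2 fell in both tissues, by 0.32 and 0.50 in spleen and 0.48 and 0.57 in node (limma adjusted p from 0.0013 to 0.0197), and the fall of Ears2 in node was not called with the batch term (-0.24, adjusted p = 0.227). Of the 23 assembly factors, Mterf4 rose in spleen by 0.36 (SE 0.12, limma adjusted p = 0.0389) and in node by 0.37 (SE 0.13, adjusted p = 0.0412). In node Mrm1 and Mtg1 fell by 0.40 and 0.50 on the log2 scale (limma adjusted p = 0.0213 and 0.0417), and neither was called with the batch term (adjusted p = 0.669 and 0.35). The shares called of the synthetases (6.25% in each direction and tissue) and assembly factors (0 to 8.7%) were below those of all genes.

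Among 12 regulators of mitochondrial biogenesis, 3 rose and 1 fell in node (25% and 8.33%, with the shares of all genes in node given above). Nrf1, a transcription factor for nuclear genes of mitochondrial proteins, rose by 0.37 (SE 0.10, limma adjusted p = 0.00993), and Gabpa and Gabpb1, the DNA-binding and activating parts of GABP, by 0.48 (SE 0.12, adjusted p = 0.00542) and 0.38 (SE 0.10, adjusted p = 0.00588). Ppargc1b, a coactivator of such factors, fell by 1.02 on the log2 scale (SE 0.14, adjusted p = 5.83e-06). In spleen 0 rose, and Ppargc1b and Ppargc1a fell by 0.64 (SE 0.12, limma adjusted p = 0.000677) and 1.10 (SE 0.25, adjusted p = 0.00354). The batch term gave the same call for Nrf1, Gabpa, Gabpb1 and Ppargc1b, and none for Ppargc1a in spleen (-0.10, adjusted p = 0.928). Of the cytosolic ribosomal protein genes, 9 of 57 were called lower and 1 higher in node with surrogate variables. The 15.8% called lower was near the share of all genes given above for node. With the batch term 1 was called lower and 2 higher.

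**Figure D5:**
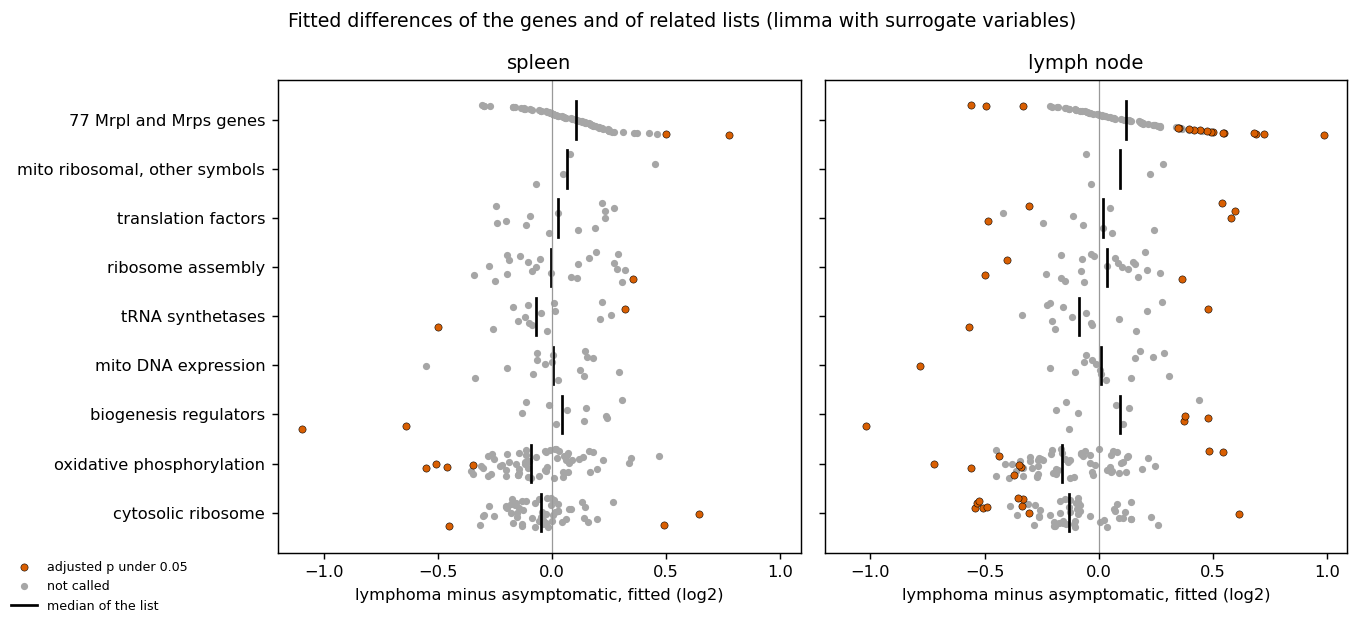
Fitted difference between lymphoma and asymptomatic mice (log2, horizontal) of the 77 genes and of 8 related lists (rows), in spleen (left) and lymph node (right); orange points passed an adjusted p under 0.05, grey points did not, and black bars mark list medians. The 77 genes have medians of 0.11 and 0.12, and oxidative phosphorylation genes of -0.09 and -0.16, the first of which is 0.25 with the batch term.

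The 77 genes also differed in how steady they were. All had a group mean of at least 7 in some group. Beside Mrpl23, the widest ranges over the 30 arrays were those of Mrpl34 (2.36 log2 units), Mrps18c (2.24) and Mrpl41 (1.96), and the narrowest were those of Mrpl55 (0.50) and Mrpl1 (0.63); these were named after their values were seen. Mrpl55, a mitochondrial large subunit protein, stayed between 7.80 and 8.31 on every array. Levels of different genes are not compared here, since probe sets differ in brightness.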

How the data were processed

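The arrays are Affymetrix Mouse Gene 1.0 ST, and the deposited log2 values were made by the authors with frozen robust multi-array analysis (fRMA), per the series' design text; the values were between 2.07 and 14.43, with array medians of 6.67 to 6.89. No further normalization was applied. Of 35557 probe sets, 1 had no values, 21789 carried 1 symbol in the platform annotation and 1621 several, while 12146 were absent from it. A gene was represented by its single-symbol probe set with the highest mean, which gave 19938 genes; 85 probe sets matched the 77 symbols, and 1 probe set shared by several symbols was left out. Depth does not apply to arrays, and their number (3 or 6 per group) limits the precision. Samples were grouped by labels, replicates being separate mice.

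All tests used limma 3.58.1 (R 4.3.3), with 1 fit of the 6 groups over all genes with 6 surrogate variables, as the design text describes surrogate variables; their number was set with 20 permutations at a p limit of 0.1, and they were estimated in 5 iterations by code written for this work and tested on simulated data. The first surrogate variable lay 91.2% between batches. p-values were adjusted by Benjamini-Hochberg over all 19938 genes, with a threshold of 0.05. Alternatives were no surrogate variables, a batch term, each batch alone, mouse or number blocks, quantile normalization, median centring, genes with a group mean of at least 7 only, the mean of all probe sets, leaving out arrays with neighbouring tissue, marker covariates, and leaving out each mouse. Same-numbered mice of different states are different animals, but their deviations from the group means correlated. In spleen r was from 0.23 to 0.50 (over 0.1 in 6 of 6 pairs). In node it was from 0.08 to 0.24 (over 0.1 in 4 of 6 pairs). Same-numbered mice also shared a batch. Because the deviations were from group means over both batches, these correlations do not separate pairing by number from batch. Spleen and node of 1 mouse correlated over 0.1 in 12 of 15 mice (-0.01 to 0.68), and the mouse block had a correlation of 0.12.

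Genes were named by a rule: for lymphoma against asymptomatic in each tissue, up to 12 largest called rises and falls with 1 sign in both batches; for other comparisons, the 5 largest called rises and falls; up to 4 with the smallest adjusted p per role group and list; and the 3 Mrps18 paralogs. It named 27 of the 77, and genes outside it (Mrpl1, Mrpl11, Mrpl14, Mrpl27, Mrpl41, Mrpl46, Mrpl48, Mrpl55, Mrps9, Mrps28) were chosen after their values were seen. The genes and lists were chosen with earlier results of these data known. Promoters were taken from RefSeq's table for GRCm38.p6.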

Additional observations from a re-analysis of the deposited data

Results flagged for a closer look

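Of 112 sets of 6 arrays examined for a lone extreme value (Dixon's ratio, which chance passes in about 1 of 20), 4 passed. Mrpl3 was at 9.19 in the spleen of asymptomatic mouse 4, against 8.38 to 8.68 in the 5 other asymptomatic spleens. Mrpl3 was also high, at 9.26, in the node of asymptomatic mouse 3, against 8.15 to 8.54. Mrps18c was at 6.70 in the node of asymptomatic mouse 1, against 8.40 to 8.64, and its lymphoma call in node was lost without that mouse. Mrps23 was at 8.65 in the node of asymptomatic mouse 6, against 9.04 to 9.28, and that node held exocrine pancreas RNA (list mean 13.40). Causes were not tested.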

How the results depend on the processing

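The numbers of the 77 genes called depended on the model. Where no share of all genes is given above for a fit, its count has no background beside it. Such a count may follow a change in calls over all genes. For lymphoma against asymptomatic spleens (2 called with surrogate variables) they were 10 without surrogate variables, 22 with a batch term, 37 and 0 within batches A and B, 29 after median centring, 25 among genes with a group mean of at least 7, 7 with the mean of all probe sets, 31 with batch and marker covariates, and 0 and 8 without arrays holding neighbouring tissue at limits of 6.9 and 7.5, the second limit chosen after the data were seen. In node (17) they were 4 without surrogate variables, 6 and 3 within batches A and B, 28 after centring and 6 at the 7.5 limit; the 6.9 limit left no asymptomatic node. For lymphoma against FVB/N spleens (3) they were 14 without surrogate variables, 20 with a batch term, 34 within batch A, 1 with the replicate block by number, 13 after centring, 19 among brighter genes, 6 with mean probe sets, 30 with covariates, and 0 and 9 at the 6.9 and 7.5 limits; in node (9) they were 4 within batch A, 14 after centring, 16 among brighter genes, 5 with covariates, and 4 and 1 at the limits. For asymptomatic against FVB/N nodes (0), centring and the brighter genes each gave 1. The node minus spleen difference (0) gave 1 after centring. Node against spleen gave 1 within batch A in lymphoma and in FVB/N mice (0 each); in asymptomatic mice (1) it gave 2 with a batch term, among brighter genes and at the 7.5 limit, and 0 within batch A, within batch B, with the replicate block by number and after quantile normalization. The batch difference in spleen (2) gave 1 after centring. The replicate block by number called 2 genes in spleen (Mrpl20 and Mrpl18, not Mrpl23) and 15 in node for lymphoma against asymptomatic, and the block by mouse 2 and 17. At the 6.9 limit the median of the 77 genes also turned, to -0.08 for lymphoma against asymptomatic spleens, and to -0.05 and -0.19 for lymphoma against FVB/N spleens and nodes. At the 7.5 limit, which kept the spleen of lymphoma mouse 1, these medians were 0.225, 0.267 and 0.076. The cause of these shifts was not tested.

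Leaving out each mouse in turn gave 1 to 43 genes in spleen and 3 to 21 in node for lymphoma against asymptomatic, 0 to 35 and 2 to 26 for lymphoma against FVB/N, 0 to 0 and 0 to 1 for asymptomatic against FVB/N, 0 to 0 for the node minus spleen difference, 0 to 0, 0 to 2 and 0 to 0 for node against spleen in lymphoma, asymptomatic and FVB/N mice, and 1 to 3 in spleen and 0 to 0 in node for the batch difference. Differences called in neither fit changed sign in 52 of 675 gene and setting pairs in spleen (14 genes) and 33 of 648 in node (6 genes). The sign also turned for Mrps15 in spleen, at -0.01 in the surrogate variable fit, to 0.25 with batch and marker covariates and 0.282 without lymphoma mouse 5, both called by limma, with a range of -0.182 to 0.282 over the mice left out, and for Mrpl24 in node, to 0.0225 within batch B, not called.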

Other observations

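Mrpl23 lies on chromosome 7 between positions 142532467 and 142540747 (GRCm38.p6), in the neighbourhood of the growth factor gene Igf2 (142650768 to 142666816). Igf2 was at 10.54, 10.92 and 12.78 in the spleens of lymphoma mice 3, 4 and 5, and at 6.17, 6.38 and 5.55 in those of lymphoma mice 1, 2 and 6, against 5.74 to 6.55 in asymptomatic spleens and 6.32 to 6.59 in FVB/N spleens. In node it was at 11.60, 11.62 and 12.67 in lymphoma mice 3, 4 and 5, and at 6.30, 6.64 and 7.83 in lymphoma mice 1, 2 and 6, against 6.50 to 8.05 in asymptomatic nodes. Mrpl23 was at 10.93, 10.97 and 11.02 in the spleens of lymphoma mice 1, 2 and 3. Both genes were thus high in the spleen of mouse 3, and Mrpl23 alone in those of mice 1 and 2. In those of mice 4 and 5 Igf2 was high and Mrpl23 was at 9.69 and 9.27. The level of 9.69 in mouse 4 was lower than in mice 1 to 3 but above all asymptomatic spleens. Igf2 was chosen after its values were seen.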
